A study of Mus musculus with 60 samples.

Results

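IL6-iHPCs are dividing cells with features of liver progenitors, obtained by growing mature hepatocytes with the cytokine IL6. A single line of them, mouse-1, was profiled by RNA sequencing at passage 35 (P35) and at passage 10 (P10). The 2 groups, 25 passages apart, were compared, with 6 samples (3 per group) out of 60 in the series. Genes were kept when they reached at least 1 FPKM (fragments per kilobase of transcript, scaled to the mapped fragments of the sample) in at least 3 of the 6 samples, which left 10981 of 19355 genes. Both groups are wild-type C57BL/6 cells that began as hepatocytes of mice aged 8 to 10 weeks, and both were grown with 30 ng/ml IL6, 20 ng/ml EGF and 20 ng/ml HGF. The line stands for 1 mouse. The study's legend describes the samples of each passage as technical repeats. The p-values therefore cover technical spread and not the variation between mice or between separate courses of passaging. The other groups used are IL6-iHPCs of another mouse, mouse-2, at P10, and IL6-iMHs, the hepatocyte-like cells obtained from the mouse-1 line at each passage by maturation. The maturation medium held oncostatin M but no IL6, EGF or HGF. Dexamethasone was in the progenitor medium too, at a lower concentration than in the maturation medium.

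Mature hepatocytes rest outside the cell cycle, secrete most of the proteins of blood plasma, and carry out fatty acid oxidation, urea synthesis and drug metabolism. Hepatocytes that divide in culture tend to lose part of this program and to express genes of bile duct cells and of fetal liver. Brakes of division, which include the p53 pathway and the inhibitors of cyclin-dependent kinases, limit how long normal cells can be passaged.

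The samples held 49.3 to 52.3 M reads (M, mega) on genes at P10 and 58.6 to 73.8 M at P35, as recovered from the deposited values. The 20 most abundant genes took 24.2% to 27.6% of the summed FPKM at P10 and 10.6% to 10.7% at P35. The plasma protein list took 13% to 14.1% at P10 and 1.98% to 1.99% at P35. Since FPKM are shares, a fall of abundant transcripts raises the values of the others, and the median gene was 0.46 higher at P35 on the log2(FPKM + 1) scale, the scale of all log2 differences given here. The part of this shift in the difference of any single gene was not tested. Where a pair of values is given without its groups, P35 comes first and P10 second. In such bulk samples a change in the share of cells that express a gene and a change of RNA per cell cannot be told apart. By chi-square per gene on the recovered reads, P10 replicate 1 stood farther from the other P10 samples (55.9 and 77.7) than those from each other (16.6). Markers of other liver cells were low. Summed over 10 endothelial markers the level was 0.210 to 0.253 FPKM at P35 and 0.111 to 0.230 FPKM at P10, and over 7 red blood cell markers it was at most 0.218 and 0.322 FPKM. The 14 Kupffer cell and leukocyte markers summed to 5.37 to 6.53 FPKM at P35 and 1.04 to 1.59 FPKM at P10, most of it the lysosomal gene Cd68. The 11 stellate cell and fibroblast markers summed to 4.92 to 5.48 and 10.2 to 19.4 FPKM, most of it the proteoglycan gene Dcn. The 4 Y-linked genes Ddx3y, Eif2s3y, Kdm5d and Uty were at 0 in all P10 samples and summed to at most 0.0157 FPKM at P35, against 5.46 to 7.21 FPKM in the freshly isolated hepatocytes.

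A large part of the transcriptome differed between the passages. In a limma fit, with p-values adjusted by the Benjamini-Hochberg method, 3054 genes were higher (27.8%) and 1093 lower (9.95%) at P35, at an adjusted p under 0.05 and at least 2-fold, which makes 37.8% of the genes tested. Without P10 replicate 1 the counts were 3188 higher and 1098 lower. The excess of rises depends on the scaling, since quantile normalization gave 1789 higher and 1731 lower, and centring each sample on its median gave 1589 higher and 1784 lower. The values of the 2 groups did not overlap for 88.2% of genes tested (62.5% with P35 higher and 25.7% with P35 lower). Among called genes whose groups did not overlap and whose higher group had a mean of at least 10 FPKM, the 10 largest rises were those of Cxcl5, Emp1, S100a8, Ube2c, Ccnb1, Krt19, Tspan8, Ccna2, Gsta4 and Plk1. The 10 largest falls included those of Itih3, Serpina3k, Vtn, Serpina3n, Fabp1, Itih4, Orm2 and Saa1. Ube2c, Ccnb1, Ccna2 and Plk1 are genes of cell division, and Itih3, Serpina3k, Vtn, Serpina3n, Itih4, Orm2 and Saa1 encode proteins that the liver secretes.

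Genes of the cell cycle were higher at P35 nearly throughout. Of 40 mitosis genes 39 rose and 0 fell, with a median log2 difference of 4.06, against 0.46 for all genes tested. Of 40 DNA replication genes 39 rose and 0 fell, with a median of 3.11. Both counts were the same after quantile normalization. The mitosis list summed to 1483 to 1530 FPKM at P35 and 39.4 to 52.7 FPKM at P10. Freshly isolated hepatocytes stood at 34 to 36.3 FPKM on this sum. Unpassaged IL6-iHPCs stood at 199 to 250 FPKM on day 3 and 141 to 166 FPKM on day 14. Mouse-2 at P10 stood at 132 to 160 FPKM and clone-1, a single-cell line, at 1039 to 1086 FPKM at passage 20. The mouse-1 P10 samples thus lay below the unpassaged cells. The cell density and the day after plating at harvest are not given for P10 or P35. Growth state at harvest and passage therefore cannot be told apart. Ube2c, an E2 enzyme that works with the anaphase-promoting complex, was at 151, 143 and 140.5 FPKM in the P35 samples and at 1.09, 1.26 and 0.677 FPKM in the P10 samples (log2 difference 6.19 ± 0.21, SE, adjusted p = 1.06e-21). Ccnb1, encoding cyclin B1, the partner of the kinase Cdk1 at entry into mitosis, was at 88.3, 87.3 and 91.4 FPKM against 0.377, 0.152 and 0.338 FPKM (log2 difference 6.13 ± 0.11, adjusted p = 5.67e-28). The groups lay far apart for both genes, which were near or below 1 FPKM in each P10 sample. The proliferation marker Mki67 was at 20.7 ± 1.73 and 0.917 ± 0.226 FPKM at P35 and P10 (SD, n = 3). Mcm5, a subunit of the replicative helicase, was at 56.9 ± 1.45 and 0.807 ± 0.124 FPKM, and Uhrf1, which helps to copy DNA methylation onto new strands, at 74.9 ± 2.94 and 1.38 ± 0.210 FPKM. Rrm2, a subunit of ribonucleotide reductase and the most abundant member of the replication list, was at 386 ± 10.5 and 32.5 ± 1.76 FPKM.

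**Figure D1:**
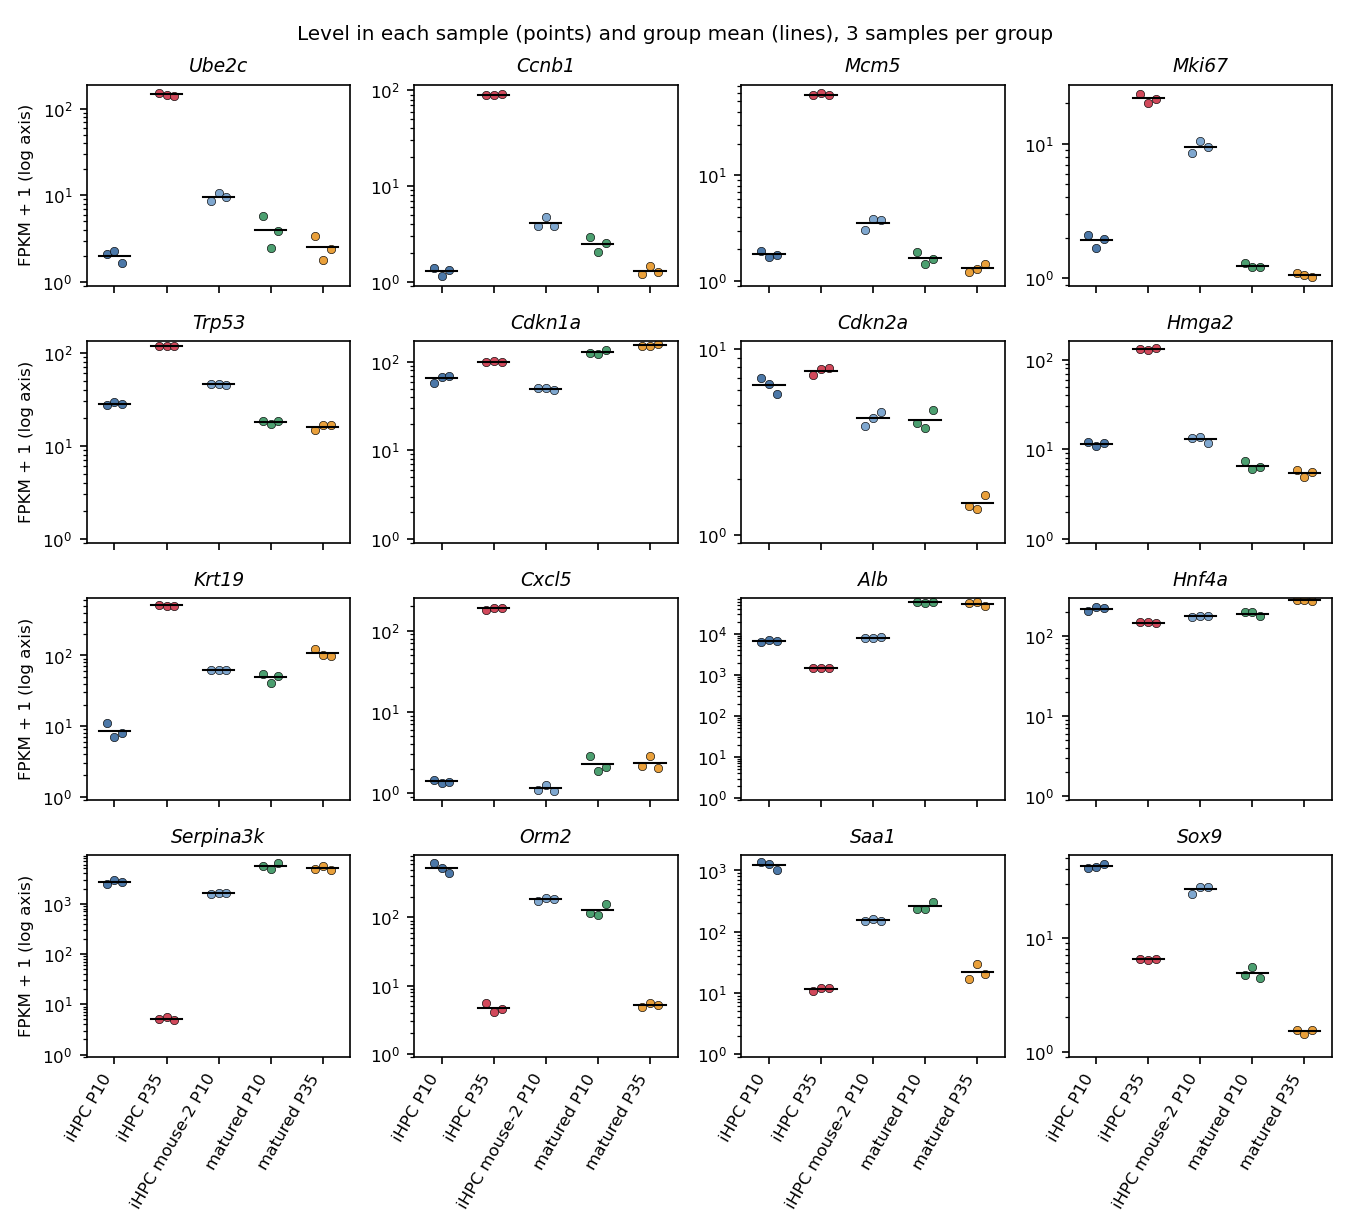
FPKM + 1 on a log axis for 16 genes in 5 groups of 3 samples, with 1 point per sample and a line at the group mean. Ube2c, Ccnb1, Mcm5 and Mki67 in the top row are highest in the P35 progenitors, and Orm2 and Saa1 are lower at P35 than at P10 both before and after maturation.

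Genes around the core of the cycle moved less. Of 23 tested genes for G1 cyclins, their kinases and E2F factors, 13 rose and 0 fell (median 1.25). Over all genes tested 27.8% rose and 9.95% fell. After quantile normalization 11 of the list rose and 0 fell, beside 16.3% and 15.8% of all. Ccnd1, encoding cyclin D1, which links growth factor signals to the cycle, was at 283 ± 2.43 and 69.2 ± 4.22 FPKM at P35 and P10. E2f8 and E2f7, repressors within the E2F family, were at 13.7 and 0.0993 FPKM and at 7.68 and 0.0362 FPKM. Of 30 DNA damage repair genes 22 rose and 0 fell (median 1.83), and 21 rose and 1 fell after quantile normalization. Of 26 ribosome biogenesis genes 16 rose and 0 fell (median 1.28), and 12 rose and 0 fell after quantile normalization.

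Of the 4 transcription factors that the study follows, 3 rose. Foxm1, an activator of genes of G2 and mitosis, was at 39.3, 38.6 and 38.3 FPKM at P35 and 0.920, 0.800 and 0.854 FPKM at P10 (log2 difference 4.42 ± 0.12, SE, adjusted p = 5.84e-24). Elf3, an epithelial ETS factor, rose by 1.397 and Mxd3, a member of the MAX network, by 1.23 on the log2 scale. The difference of Mxd3 was under 2-fold after quantile normalization (0.88) and after centring (0.79), and that of Elf3 after centring (0.96), so that after centring Foxm1 alone of the 4 was called. Barx2 was at 1.87 ± 0.371 and 1.98 ± 0.0852 FPKM (adjusted p = 0.615).

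Promoters of the cell cycle genes held the letters of known cell cycle elements more often than promoters in general. RefSeq windows from 250 bases before to 50 bases after the start (GRCm38.p6, the first window listed per gene) matched 8569 of the genes tested, and both strands were searched for each motif separately, so that matches of different motifs may overlap. The cell cycle genes homology region (CHR), searched as TTTGAA, was found in 23 of 34 windows of mitosis genes (67.6%), against 11.7% of the windows of all genes tested. CHR together with a CCAAT box was found in 58.8%, against 5.03%. An E2F core, TTCCCGC or TTGGCGC, was found in 17 of 32 windows of DNA replication genes (53.1%), against 13.0% of all and 14.7% of mitosis genes. Over all genes called higher the shares were 13.5% for CHR and 15.6% for E2F, and over all called lower 12.7% and 7.08%. The lists were written from general knowledge of cell cycle genes, so their shares describe the lists and are not a result of this comparison. The palindrome of STAT factors, TTCNNNGAA, was found in 5 of 32 windows of the acute phase and IL6-STAT3 genes described further on (15.6%), against 6.93% of all. Of these genes Itih4 and Steap4 fell (log2 difference -6.90 and -3.05). Bcl6, Cish and Socs3 were not called (-0.58, -0.16 and 0.17). The windows of Saa1, Orm2, Serpina3n and Lcn2, which fell, held no match. A match describes letters and not a bound site.

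The sequences shown are the 150 bases before the start of 3 mitosis genes with CHR in capitals, of 2 replication genes with the E2F core in capitals, and of Itih4, one of the largest falls, with the STAT palindrome in capitals, so that the place of each element near the start can be seen. They were chosen for a match, with their values known. All are written 5′ to 3′ on the gene's strand, credited to RefSeq (GRCm38.p6), and lie at chr2:164769779-164769928 (plus strand, Ube2c), chr10:69352913-69353062 (minus strand, the mitotic kinase Cdk1), chr19:37376232-37376381 (plus strand, the spindle motor Kif11), chr17:56303187-56303336 (plus strand, Uhrf1), chr17:56040266-56040415 (plus strand, the histone chaperone subunit Chaf1a) and chr14:30886326-30886475 (plus strand, Itih4). A motif in capitals may be read on the other strand.
Ube2c: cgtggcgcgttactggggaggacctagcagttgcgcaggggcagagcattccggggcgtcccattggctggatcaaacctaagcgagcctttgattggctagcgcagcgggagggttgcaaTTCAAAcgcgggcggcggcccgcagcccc
Cdk1: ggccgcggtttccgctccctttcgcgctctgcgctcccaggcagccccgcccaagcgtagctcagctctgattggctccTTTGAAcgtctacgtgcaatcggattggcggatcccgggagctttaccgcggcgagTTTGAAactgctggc
Kif11: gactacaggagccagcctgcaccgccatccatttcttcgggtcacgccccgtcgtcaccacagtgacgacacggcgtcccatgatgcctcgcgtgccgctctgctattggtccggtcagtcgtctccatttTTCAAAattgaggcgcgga
Uhrf1: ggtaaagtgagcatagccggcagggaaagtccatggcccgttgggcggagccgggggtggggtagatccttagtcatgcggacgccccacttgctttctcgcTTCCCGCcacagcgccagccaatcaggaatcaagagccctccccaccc
Chaf1a: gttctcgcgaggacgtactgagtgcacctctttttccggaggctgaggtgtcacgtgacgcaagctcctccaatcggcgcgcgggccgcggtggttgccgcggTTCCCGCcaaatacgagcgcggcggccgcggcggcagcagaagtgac
Itih4: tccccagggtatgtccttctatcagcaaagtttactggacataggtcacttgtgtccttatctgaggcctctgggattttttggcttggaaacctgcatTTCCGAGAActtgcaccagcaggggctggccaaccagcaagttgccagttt

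Ube2c and Uhrf1 are described above. Cdk1 was at 59.3 and 1.58 FPKM, Kif11 at 16.3 and 0.439 FPKM and Chaf1a at 36.9 and 1.72 FPKM at P35 and P10, while Itih4, a plasma protein of the acute phase, was at 0.225 ± 0.0441 and 148 ± 29.2 FPKM.

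Inhibitors of cyclin-dependent kinases were expressed at both passages. Of 8 genes in the list 7 were tested, of which 4 rose and 0 fell, beside 27.8% and 9.95% of all genes tested. After quantile normalization 3 rose and 0 fell, beside 16.3% and 15.8%. Cdkn2d and Cdkn2c, INK4 inhibitors of the cyclin D kinases, were at 24.5 ± 1.13 and 3.16 ± 1.35 FPKM and at 26.6 ± 0.299 and 5.62 ± 1.32 FPKM at P35 and P10. Cdkn1b, encoding p27, was at 52.5 ± 0.884 and 22.9 ± 2.51 FPKM, a difference that was under 2-fold after quantile normalization (0.79 on the log2 scale). Cdkn3, a phosphatase that acts on cyclin-dependent kinases, was at 23.04 ± 0.811 and 1.16 ± 0.387 FPKM. Cdkn1a, encoding p21, a target of p53, was at 98.9, 101 and 99.3 FPKM at P35 and 56.96, 67.1 and 67.9 FPKM at P10, so that the groups did not overlap but the log2 difference of 0.64 stayed under 2-fold. Cdkn2a, the locus of p16 and p19ARF, was at 6.27, 6.82 and 6.92 FPKM at P35 and 5.95, 5.502 and 4.74 FPKM at P10. Its neighbour Cdkn2b was at 17.7 ± 0.682 and 14.2 ± 1.03 FPKM. The log2 differences of Cdkn2a (0.26) and Cdkn2b (0.29) turned negative after quantile normalization and after centring. The table has 1 value per gene, so the products of Cdkn2a cannot be told apart. Cdkn1c, encoding p57, had means of 0.780 and 0.117 FPKM and was not tested.

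Trp53, encoding p53, was at 118, 117 and 115 FPKM at P35 and 26.2, 28.3 and 27.1 FPKM at P10 (log2 difference 2.06 ± 0.08, SE, adjusted p = 3.6e-20). Of 29 tested genes in the list of p53 and its targets 11 rose and 2 fell (median 0.74), and after quantile normalization 6 rose and 3 fell, when 16.3% and 15.8% of all genes tested did so. Bax, which permeabilizes mitochondria in apoptosis, was at 75.2 ± 2.101 and 13.9 ± 2.01 FPKM at P35 and P10. Mdm2, the ubiquitin ligase of p53 and also its target, was at 41.3 ± 1.07 and 32.8 ± 2.36 FPKM, a log2 difference of 0.33 that turned negative after quantile normalization and after centring. Trp53inp1 and Sesn2, the targets that fell, were at 13.98 and 57.8 FPKM and at 12.8 and 33.4 FPKM, and both lie on chromosome 4, whose genes are described at the end.

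Tert, the catalytic subunit of telomerase, was at 0.713, 0.792 and 0.875 FPKM at P35 and 0.828, 0.621 and 0.653 FPKM at P10, and was not tested. Of the other 19 telomere maintenance genes 12 rose and 0 fell (median 1.21), and 8 rose after quantile normalization. The shares of all genes tested that rose were 27.8% before and 16.3% after it. Ten1 and Obfc1, subunits of the CST complex that completes the telomere's lagging strand, were at 13.4 and 0.911 FPKM and at 22.1 and 3.11 FPKM at P35 and P10. In the list for the secretion and nuclear changes of senescent cells 23 of 32 genes were tested, of which 13 rose and 2 fell (median 1.299). Of all genes tested 27.8% rose and 9.95% fell. After quantile normalization 10 of the list rose and 3 fell, beside 16.3% and 15.8%. The list pools secreted factors with Lmnb1, which senescent cells lose, so its counts do not describe 1 direction of change. Cxcl5, a chemokine that attracts neutrophils, was at 187 ± 5.53 and 0.388 ± 0.0581 FPKM. Lmnb1, encoding lamin B1, was at 50.4 ± 1.05 and 1.92 ± 0.338 FPKM. Vegfa and Icam1 fell, with 17.4 and 65.6 FPKM and 25.6 and 53.95 FPKM.

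Genes for plasma proteins were lower at P35. Of 47 in the list 41 were tested, of which 35 fell and 1 rose (median -3.67). Serpina3k, a serpin of plasma, was at 4.097, 4.62 and 3.88 FPKM at P35 and 2433, 2957 and 2668 FPKM at P10 (log2 difference -9.01 ± 0.10, SE, adjusted p = 7.19e-33). Vtn, encoding vitronectin, was at 6.32 ± 0.355 and 1214 ± 20.1 FPKM. Alb, encoding albumin, changed less, with 1502, 1476 and 1494 FPKM at P35 and 6397, 7267 and 6842 FPKM at P10 (log2 difference -2.19 ± 0.11). Trf, encoding transferrin, was the most abundant member at 2508 and 6692 FPKM, and its fall was absent after quantile normalization (0.041 on the log2 scale). Serpina1e was the member that rose, with 15.2 and 5.02 FPKM, and its difference was under 2-fold after centring.

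Metabolic genes divided by pathway. Of 31 tested genes of fatty acid oxidation and ketogenesis 17 fell and 0 rose (median -1.15). Fabp1, the fatty acid carrier of liver, was at 4.27 ± 1.22 and 690.1 ± 248 FPKM, with a wide spread at P10. Of 25 tested cytochrome P450 genes 17 fell and 4 rose (median -2.47). Cyp2j5 and Cyp2d26 were at 0.0538 and 82.1 FPKM and at 0.982 and 85.8 FPKM at P35 and P10, whereas Cyp1b1, an enzyme found mainly outside the liver, was at 3.51 and 0.0211 FPKM. Of 22 tested genes of the urea cycle and amino acid breakdown 11 fell and 5 rose, beside 9.95% and 27.8% of all genes tested. After quantile normalization 13 fell and 3 rose, beside 15.8% and 16.3%. Mat1a, the methionine adenosyltransferase of adult liver, was at 0.178 and 51.3 FPKM, and Gls2, a glutaminase, at 4.64 and 0.253 FPKM. In glycolysis and gluconeogenesis 10 of 31 fell and 8 rose, the rises near the share of all genes tested (27.8%). After quantile normalization 14 fell and 4 rose. G6pc, the glucose-6-phosphatase of liver, was at 0.148 and 51.1 FPKM, and Pkm and Hk1, the pyruvate kinase and hexokinase of many dividing cells, were at 1939 and 582 FPKM and at 32.8 and 7.33 FPKM. In sterol and fatty acid synthesis 9 of 36 rose and 6 fell, beside 27.8% and 9.95% of all genes tested, and after quantile normalization 2 rose and 8 fell, beside 16.3% and 15.8%. Thrsp, a regulator of fatty acid synthesis, was at 0.0472 and 78.9 FPKM.

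Hepatocyte transcription factors moved in both directions and fell more often than genes in general. Of 24 tested 9 fell and 4 rose (median -0.39), beside 9.95% and 27.8% of all genes tested. After quantile normalization 11 fell and 4 rose (median -0.85), beside 15.8% and 16.3%. Hnf4a, the central factor of hepatocyte identity, was at 147, 145 and 142 FPKM at P35 and 201, 226 and 222 FPKM at P10. The groups did not overlap, and the log2 difference of -0.57 ± 0.06 (SE) was under 2-fold but passed after quantile normalization (-1.08). Creb3l3, a factor for secreted and lipid-handling proteins, was at 5.39 ± 0.107 and 129.9 ± 2.33 FPKM, and Ppara, the receptor that drives fatty acid oxidation, at 0.496 ± 0.0641 and 10.4 ± 0.976 FPKM. Gata6 and Foxa2, factors of early endoderm, rose, with 9.46 and 0.884 FPKM and 39.98 and 10.3 FPKM.

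**Figure D2:**
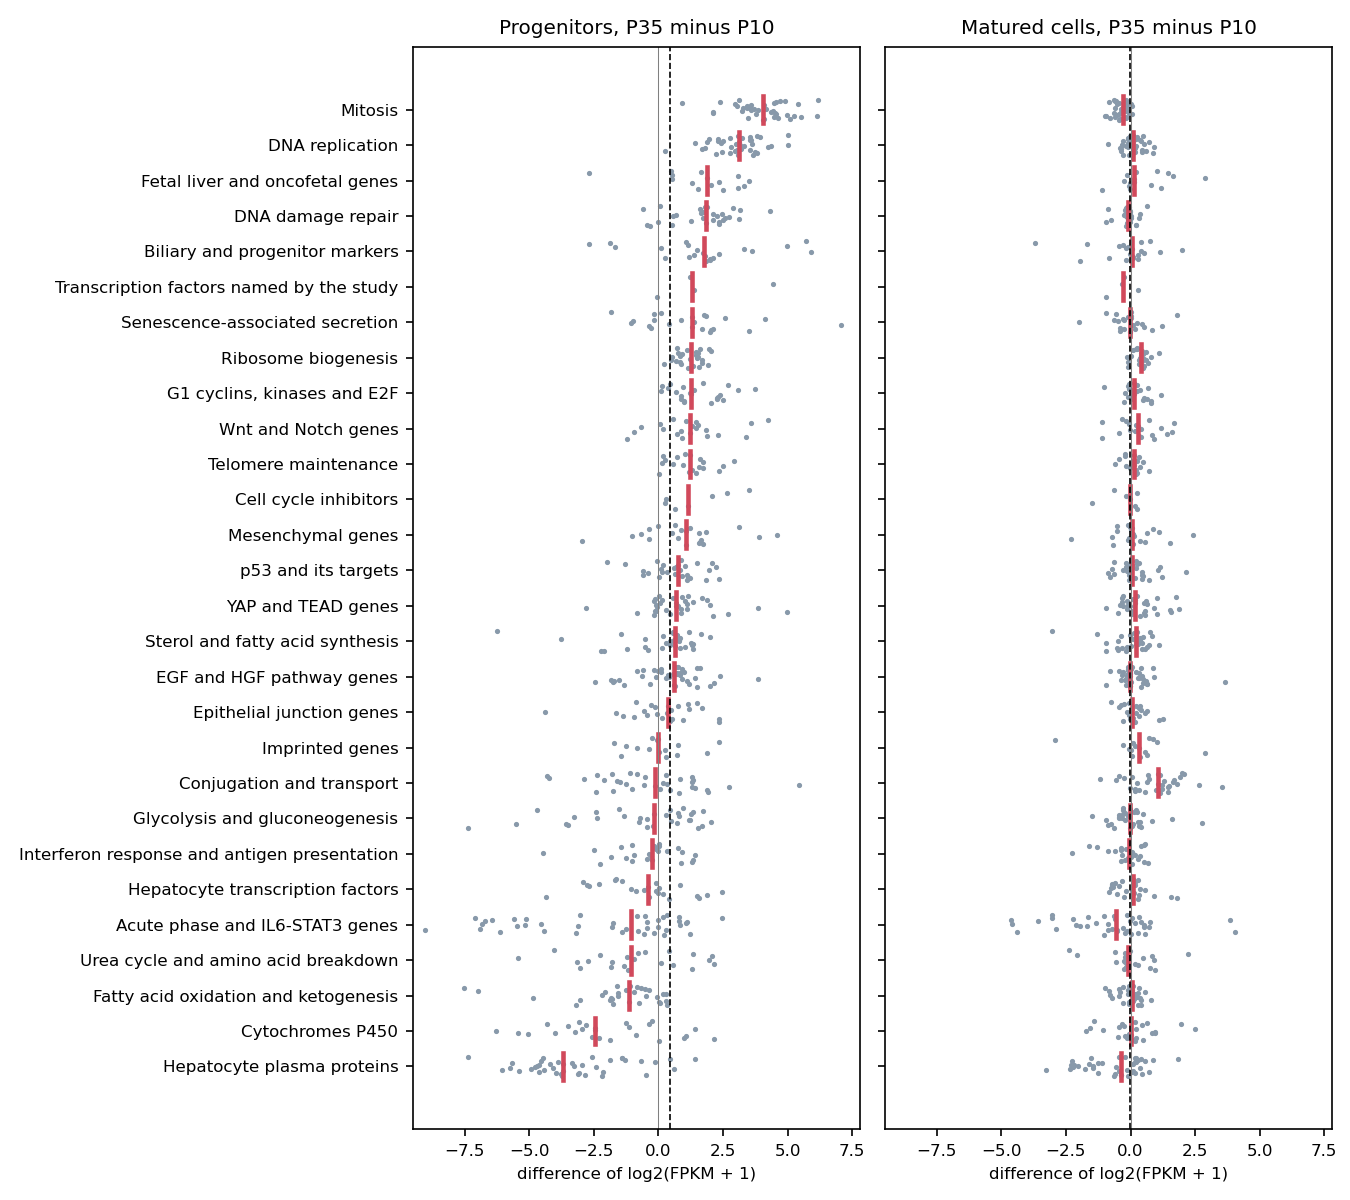
Difference of log2(FPKM + 1) between P35 and P10 for the tested genes of 28 lists in progenitors (left) and matured cells (right), with 1 point per gene, a red line at the list's median and a dashed line at the median of all genes tested. In progenitors the medians run from -3.67 (plasma proteins) to 4.06 (mitosis), and in matured cells these lists stand at -0.38 and -0.29.

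IL6 signals through its receptor and the shared subunit gp130 to the factor Stat3, which in hepatocytes drives the acute phase proteins. The medium held IL6 at both passages, and 20 of 40 tested acute phase and IL6-STAT3 genes were lower at P35 and 4 higher (median -1.05). The other 16 were not called, among them Stat3 (log2 difference -0.83), Il6st, encoding gp130 (0.29), Jak2 (-0.43), Socs3 (0.17), Cish (-0.16) and Saa3 (-0.0063). Osmr, a receptor subunit, and Jak1 stood at -1.75 and -1.27. The genes described next are members that were called. Saa1, an apolipoprotein of the acute phase, was at 9.88, 11.04 and 10.9 FPKM at P35 and 1384, 1270.5 and 1036 FPKM at P10. Orm2, encoding an acid glycoprotein, was at 4.57, 3.07 and 3.504 FPKM and 629.6, 529.6 and 452 FPKM. Each P35 sample lay far below each P10 sample for both genes. Itih3, a heavy chain of the inter-alpha-trypsin inhibitor, had the lowest log2 difference of the genes named here (-9.02 ± 0.11), with 1.21 ± 0.136 and 1154 ± 185 FPKM. Serpina3n, a protease inhibitor, was at 38.7 ± 2.34 and 5489 ± 730.0 FPKM, and Lcn2, encoding lipocalin 2 and the most abundant member, at 985 ± 19.2 and 8609 ± 752 FPKM. Socs1, a feedback inhibitor of Jak kinases, rose, with 8.18 ± 0.274 and 0.711 ± 0.454 FPKM. In the EGF and HGF list 10 of 40 tested genes rose and 6 fell, beside 27.8% and 9.95% of all genes tested. After quantile normalization the counts were 8 and 9, beside 16.3% and 15.8% of all. Egfr, the receptor of EGF, was at 22.7, 23.9 and 24.6 FPKM at P35 and 129, 132 and 141 FPKM at P10, and its feedback inhibitor Errfi1 was at 71.3 and 259.5 FPKM. Hras and the ETS factor Etv4, which act downstream of such receptors, rose, with 66.3 and 12.04 FPKM and 19.8 and 0.464 FPKM.

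Genes of bile duct and progenitor cells rose in most cases. Of 33 measured markers 22 were tested, of which 17 rose and 3 fell (median 1.75), beside 27.8% and 9.95% of all genes tested. After quantile normalization 14 rose and 2 fell, beside 16.3% and 15.8%. Krt19, a keratin of bile ducts, was at 517, 506 and 508 FPKM at P35 and 9.94, 6.07 and 6.94 FPKM at P10 (log2 difference 5.91 ± 0.12, SE, adjusted p = 5.99e-27), and Tspan8, a tetraspanin, at 184 ± 6.58 and 2.59 ± 0.528 FPKM. Sox9, a transcription factor of bile ducts, fell, with 5.54, 5.43 and 5.58 FPKM at P35 and 39.7, 41.2 and 43.6 FPKM at P10. Spp1, encoding osteopontin, fell too, with 2215 and 8034 FPKM, a difference that was under 2-fold after quantile normalization. Of 15 tested fetal liver and oncofetal genes 11 rose and 1 fell (median 1.88), and 9 rose and 1 fell after quantile normalization. Hmga2, a chromatin protein of embryonic tissue, was at 131 ± 3.11 and 10.6 ± 0.648 FPKM, and Afp, encoding alpha-fetoprotein, at 9.41 ± 0.421 and 0.892 ± 0.471 FPKM. Ly6d was the member that fell, with 0.0224 and 5.798 FPKM.

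Of 22 tested mesenchymal genes 12 rose and 2 fell (median 1.07), and 9 rose and 2 fell after quantile normalization. Sparc, a matricellular protein, was at 23.5, 23.5 and 24.2 FPKM at P35 and 0.0845, 0.0148 and 0 FPKM at P10, while Fn1, encoding fibronectin, fell, with 799 and 6227 FPKM. Of 24 tested epithelial junction genes 6 rose and 3 fell, beside 27.8% and 9.95% of all genes tested, and the median of this list (0.36) turned negative after quantile normalization and after centring. Cdh1, encoding E-cadherin, rose, with 156 and 30.1 FPKM, and the gap junction gene Gjb2 fell, with 3.19 and 90.2 FPKM. Of 33 tested YAP and TEAD genes 12 rose and 1 fell, and 7 rose and 2 fell after quantile normalization, beside 27.8% and 9.95% of all genes before and 16.3% and 15.8% after it. The receptor kinase Axl was at 242 ± 1.74 and 7.23 ± 3.42 FPKM. Of 21 tested Wnt and Notch genes 12 rose and 1 fell, and 9 rose and 3 fell after quantile normalization. The ligands Wnt7b and Wnt10a were at 20.7 and 0.137 FPKM and at 27.3 and 1.36 FPKM. In interferon response and antigen presentation 8 of 25 fell and 3 rose, beside 9.95% and 27.8% of all genes tested. After quantile normalization 9 fell and 2 rose. B2m, the light chain of MHC class I, was at 137 and 658 FPKM. Of 15 tested imprinted genes 2 rose and 3 fell, before and after quantile normalization, beside the same shares of all genes as for the YAP and TEAD list. Igf2, a fetal growth factor, was at 3.87 and 0.328 FPKM.

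The line of mouse-2 at P10 shows the size of a difference between lines at a matched passage. It differed from mouse-1 at P10 in 477 genes (4.34% of those tested, 2.29% higher and 2.05% lower), and P35 differed from mouse-2 at P10 in 3619 genes (33%, 24.3% higher and 8.7% lower). Each comparison shares a group with that of P35 and P10, so the values are set side by side and are not separate support. Of the mitosis genes 22 were higher in mouse-2 than in mouse-1 at P10 (median 1.097), and 38 were higher at P35 than in mouse-2 (median 2.97). Mki67 was at 8.44 ± 0.938 FPKM in mouse-2, Krt19 at 61.02 ± 0.557 FPKM and Saa1 at 153 ± 7.76 FPKM, all between the levels of mouse-1 at P10 and P35. Alb at 8098 ± 293 FPKM and Egfr at 149 ± 1.57 FPKM lay on the other side of the P10 level of mouse-1, away from P35.

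Matured cells differed less between the passages. In IL6-iMHs 334 genes were higher (3.04%) and 270 lower (2.46%) at P35 than at P10 (5.5% of those tested). The difference between the 2 passage differences, tested as an interaction in the same fit, passed the same threshold for 3961 genes (36.1%, 26.5% positive and 9.58% negative), which include 76.7% of the genes called in progenitors. Genes higher at P35 in both states numbered 155, which is 3.74% of the calls in progenitors and 25.7% of those in matured cells, and genes lower in both numbered 162 (3.91% and 26.8%). No mitosis or DNA replication gene passed the same threshold, which includes 2-fold, in matured cells (medians -0.29 and 0.089). Of 40 mitosis genes 38 had a negative difference there, and the list summed to 37.1 to 38.2 FPKM at P35 and 50.4 to 67.2 FPKM at P10. Only 10 and 17 of the 40 had a mean of at least 1 FPKM, and below that level the pseudocount understates a fold change. In matured cells Mki67 was at 0.0592 and 0.239 FPKM and Trp53 at 14.9 and 16.9 FPKM at P35 and P10. Alb was at 54508 ± 5015 and 58855 ± 2949 FPKM and Serpina3k at 5062 ± 439.9 and 5607 ± 754 FPKM in matured cells. Cdkn2a was lower in matured P35 cells, with 0.480 and 3.14 FPKM (log2 difference -1.48 ± 0.08).

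Part of the acute phase list was also lower at P35 after maturation, in a medium with oncostatin M, a cytokine of the IL6 family. Of 40 tested 15 were lower, 2 higher and 23 not called in matured P35 cells (median -0.56), and of the plasma protein genes 15 were lower and 1 higher. Orm2 was at 4.16 ± 0.308 and 126 ± 26.9 FPKM at P35 and P10 (log2 difference -4.61 ± 0.12), Saa1 at 21.2 ± 6.63 and 259 ± 44.02 FPKM (-3.58 ± 0.19), Serpina3n at 338 ± 13.7 and 2783 ± 448 FPKM (-3.03 ± 0.12) and Itih4 at 22.4 ± 2.65 and 173 ± 40.2 FPKM (-2.88 ± 0.13). The members that were higher were Saa3, an acute phase serum amyloid, at 136 ± 18.4 and 8.72 ± 2.097 FPKM (3.83 ± 0.25), and the immediate early gene Fos at 45.9 ± 15.7 and 1.76 ± 0.293 FPKM (4.04 ± 0.13). Sox9 and Spp1 were lower, with 0.512 and 3.905 FPKM and 86.1 and 1118 FPKM. Krt19 (107 and 47.98 FPKM), Sparc (4.93 and 0.119 FPKM), Igf2 (6.9 and 0.0604 FPKM) and the glutathione transferase Gsta4 (67.3 and 9.805 FPKM) were higher in both states. Of the 33 tested genes of conjugation and transport 19 were higher and 1 lower in matured P35 cells. The shares over all genes tested were 3.04% and 2.46% there. In progenitors 9 were higher and 13 lower, beside 27.8% and 9.95% of all, so the rises there were near the share of all genes. After quantile normalization the progenitor counts were 6 and 15, beside 16.3% and 15.8%. The Kupffer cell and leukocyte markers summed to 32.7 to 40.9 FPKM in matured P35 cells and 3.495 to 4.67 FPKM in matured P10 cells, with 2 of 14 at a mean of 1 FPKM or more in each, and their part in these differences was not tested.

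**Figure D3:**
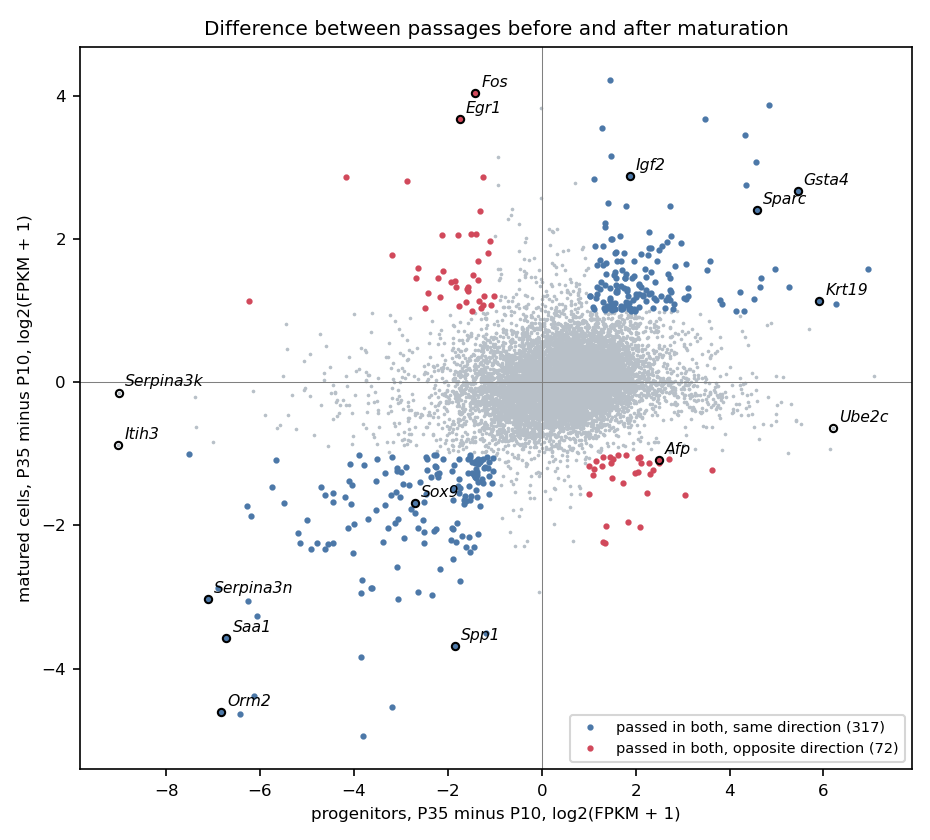
Difference of log2(FPKM + 1) between P35 and P10 in progenitors (horizontal) and matured cells (vertical), with 1 point per gene and color for genes that passed the test in both states. Orm2 (-6.83 and -4.61), Saa1 and Serpina3n lie at the lower left, and Serpina3k (-9.01 and -0.14) lies near 0 on the vertical axis.

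Genes of chromosome 4 were lower at P35 relative to those of the other chromosomes. Over the 8075 genes with a mean of at least 5 FPKM and a known chromosome the median log2 difference was 0.53. On chromosome 4 it was -0.199 over 470 genes, and on the other autosomes and the X chromosome it ran from 0.25 (chromosome 6) to 0.71 (chromosome 7). Taken against the mean of the P10 samples and minus the median of all genes, chromosome 4 stood at -0.73 to -0.71 in the P35 samples. Of its genes 8.72% were called higher and 18.9% lower, against 29.1% and 9.1% of all 8075 genes. In stretches of 20 Mb the value was negative along the whole chromosome, from -0.61 to -1.83, the last from only 18 genes. Cdkn2a, Cdkn2b, Cdkn2c, Orm2, Errfi1 and Cyp2j5 lie on chromosome 4, as do 1 of the 35 plasma protein genes and 4 of the 20 acute phase genes that fell. Without the genes of chromosomes 4 and 6, an alternative chosen after seeing the data, 2896 genes were higher and 882 lower (38.6% of 9795).

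Matured cells of the same line and passage did not show this level. On the same measure chromosome 4 stood at -0.11 to -0.065 in matured P35 cells, at -0.029 to -0.0074 in matured P10 cells, at -0.042 to -0.028 in mouse-2 progenitors and at 0.099 to 0.14 in hepatocytes. Progenitors of clone-1, a line grown from a single cell, stood at -0.79 to -0.78 at passage 20 and at -0.48 to -0.46 after maturation. Chromosome 6 stood at -0.28 to -0.27 in the P35 samples, at -0.021 to 0.028 in matured P35 cells, at -0.03 to -0.012 in mouse-2 progenitors and at -0.53 to -0.49 in hepatocytes. Unpassaged IL6-iHPCs stood at -0.52 to -0.43 on day 3 and at -0.55 to -0.53 on day 14 on chromosome 6, and clone-1 at -0.51 to -0.47 before and -0.42 to -0.399 after maturation. The P10 samples, which set the zero of this measure, thus lay above the hepatocytes, the unpassaged cells and clone-1 on chromosome 6, and the P35 samples lay between. The paper reports a normal diploid karyotype for late-passage progenitors and for a single-cell line of the same name and passage as that above. It does not say whether the late-passage progenitors came from the line profiled here. Copy number was not analysed here, and the cause of these levels was not tested.

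**Figure D4:**
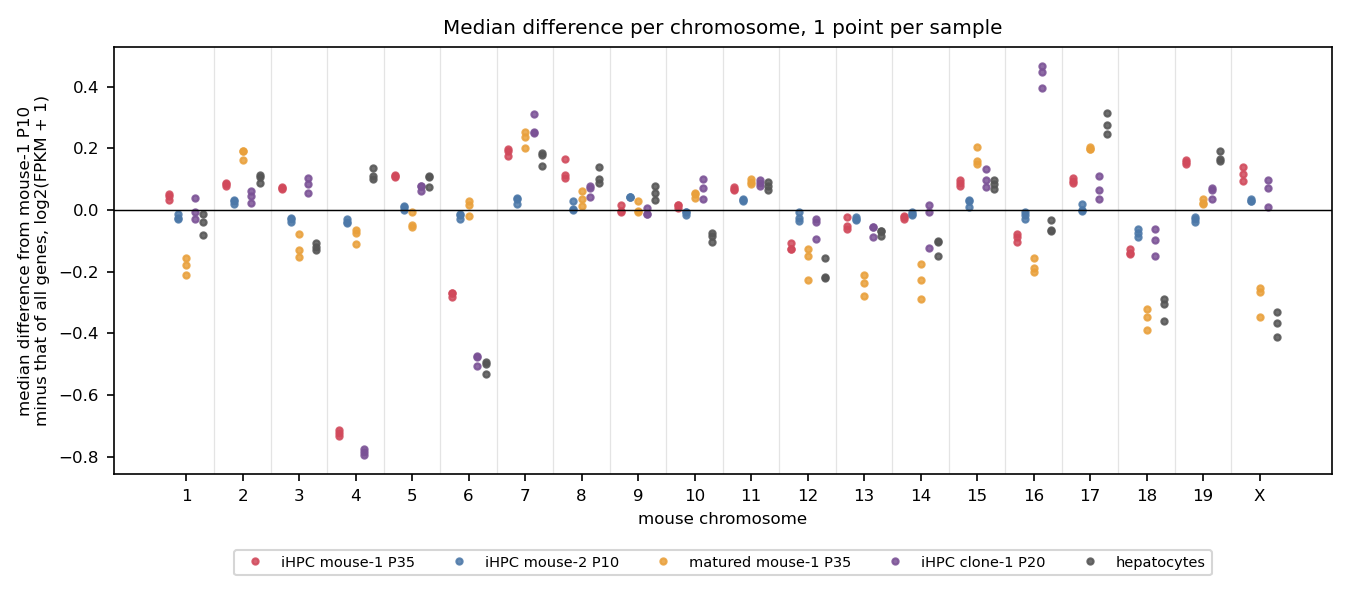
Median difference from the mean of the mouse-1 P10 progenitors for the genes of each chromosome, minus that of all genes, on the log2(FPKM + 1) scale, with 1 point per sample for 5 groups of 3. On chromosome 4 the P35 progenitors (-0.73 to -0.71) and clone-1 (-0.79 to -0.78) lie apart from the other groups shown.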

How the data were processed

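RNA of cultured cells was sequenced by the authors, who deposited 1 value per gene and sample. The unit is not named in the paper. The deposited values were treated as FPKM computed by the authors, and the submitters' processing notes list TopHat 1.4.1, Cufflinks 1.3.0 and the build mm10. Whole reads were recovered (tolerance 0.05) for 18107 of 18828 genes, which gave the depth of each sample. Groups follow the sample titles.

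On the log2(FPKM + 1) scale, limma (version 3.58.1, under R 4.3.3) fitted a mean per group to the 33 samples of the cell table (11 groups of 3) together, so that all groups share 1 estimate of the spread, moderated with an intensity trend. The Benjamini-Hochberg adjustment covered every gene tested. With the pseudocount of 1, the fold change of low genes is understated. Tables and figures were made with Python 3.11.15, pandas 2.3.3 and matplotlib 3.10.9. The fit was tested on simulated data with known changes. The simulation held neither the shift in composition between P10 and P35 nor a replicate that stands apart, so it does not cover these.

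The comparison and the gene lists, written from general knowledge, were chosen with earlier results of these data known. Named are up to 2 largest rises, 2 largest falls and the most abundant member of each list, the 10 largest rises and falls of all, and the members of short lists. Cdk1, Kif11, Chaf1a, Saa3, Fos, Egr1, Stat3, Il6st, Jak1, Jak2, Osmr, Socs3, Cish, Bcl6 and Steap4 were named after their values were seen. Some genes that the rule names are not reported here. Lists and chromosomes (from GENCODE, matched by symbol) were described without a test. Alternatives were another pseudocount, other filters, quantile normalization, centring, other fold thresholds, no trend, fewer samples in the fit (also with a replicate block), limma voom on recovered reads and leaving out each sample. Replicate numbers were checked for pairing (correlations of same-numbered samples 0.003 to 0.116) and were not used to pair samples. Replicates differed by more than sampling noise (chi-square per gene 6.18 to 77.7), so none was merged.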

Additional observations from a re-analysis of the deposited data

Results flagged for a closer look

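The difference between P35 and P10 itself differed between progenitors and matured cells for 3961 genes, by the interaction test in limma at an adjusted p under 0.05 and 2-fold. Among genes that passed the test in both states, 72 moved in opposite directions, 33 higher in P35 progenitors but lower in matured P35 cells and 39 the reverse. Values for 4 of them follow, of which Fos and Egr1 were picked after their values were seen. Afp was at 9.41 and 0.892 FPKM in P35 and P10 progenitors and at 0.921 and 3.08 FPKM in matured cells, and the difference between the log2 differences was 3.57. Ly6d was at 0.0224 and 5.798 FPKM and at 10.5 and 3.34 FPKM (-4.12). The immediate early genes Fos and Egr1, which respond to growth factors and stress within minutes, were at 1.56 and 5.83 FPKM and 17.3 and 60.4 FPKM in progenitors and at 45.9 and 1.76 FPKM and 98.5 and 6.59 FPKM in matured cells (-5.45 for Fos and -5.42 for Egr1). Groups of 3 samples were not tested for samples that stand apart.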

How the results depend on the processing

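The count of genes that differed between P35 and P10 (4147) ranged from 4062 to 4286 when any 1 sample was left out (2985 to 3188 higher, 1077 to 1098 lower), and the other counts from 466 to 510 (mouse-2 against mouse-1 at P10), 3606 to 3632 (P35 against mouse-2), 591 to 620 (matured cells) and 3861 to 4161 (interaction). In a fit of fewer samples with the replicate block, which pairs samples by a number that they only share, the counts were 4147, 479, 3619, 603 and 3963 in the same order. In that order they were 9634 (6841 higher, 2793 lower), 5791, 9365, 6494 and 8874 with no fold threshold, 6638 (4906 and 1732), 1512, 6158, 1892 and 6504 at 1.5-fold, and 1026 (684 and 342), 54, 852, 108 and 999 at 4-fold. Quantile normalization gave 1789 higher and 1731 lower for P35 against P10, and centring 1589 and 1784. A pseudocount of 0.1 gave 853 for mouse-2 against mouse-1 and 1059 for matured cells, and limma voom on recovered reads 944 and 1272.

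Of 1939 values for 130 named genes under the alternatives, 1901 kept direction and side of the threshold, 20 fell under it, 8 rose past it and 10 changed direction. These 10 are the log2 differences of Cdkn2a (-0.11 and -0.17), Cdkn2b (-0.19 and -0.14), Glud1 (-0.30 and -0.33) and Mdm2 (-0.18 and -0.11) after quantile normalization and centring, Trf (0.041) after quantile normalization, and Barx2 (0.016) without P35 replicate 3, within a range of -0.16 to 0.016 when 1 sample was left out. List medians changed direction for conjugation and transport with a filter at 5 FPKM (0.13), for epithelial junctions after quantile normalization and centring (-0.12 and -0.078), and for imprinted genes without a filter (0.019) and when 1 sample was left out (-0.084 to 0.018). The cause of these changes was not tested. Relative to all genes, chromosome 4 stood at -0.79 to -0.71 and chromosome 6 at -0.31 to -0.26 under the alternatives. Depth limits little above 1 FPKM at 49.3 M reads (M, mega) or more. The samples are technical repeats of 1 line, so no p-value here covers another course of passaging.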
